A study of Mus musculus with 36 samples.

Results

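The dorsal-ventral axis of the mouse limb was examined through H3K27ac, acetylation of histone H3 at lysine 27, around 3 of its genes, Lmx1b, En1 and Wnt7a. All peaks that overlapped a fixed window around each gene were taken from 18 ChIP-seq peak lists (coordinates in mm9). The Lmx1b window lay on chromosome 2 from 33250000 to 33650000, the En1 window on chromosome 1 from 122300000 to 122700000 and the Wnt7a window on chromosome 6 from 91200000 to 91450000. They held 568 of the 732259 peaks of the series, with 409 in the Lmx1b window, 79 in the En1 window and 80 in the Wnt7a window. Consensus regions, meaning stretches that peaks of 2 or more libraries share, numbered 32 in the Lmx1b, 8 in the En1 and 7 in the Wnt7a window, 47 of 63594 in all.

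The tissue was dissected forelimbs of FVB mouse embryos at embryonic day 11.5, pooled for each library and given no treatment. The 6 mutant lines, each null for 1 limb enhancer, were set beside wild type, and the zygosity and extent of the deletions are not given in the sources used here. There were 4 libraries of mm1179 KO, 2 each of hs72 KO, hs1262 KO, hs1467 KO, hs1586 KO and hs1603 KO, and 4 of wild type (WT). The names of the 6 enhancers do not say which genes they act on. The question put to these data was whether acetylation around the dorsal-ventral genes stayed the same when an enhancer was missing. It was also asked how mesenchymal and ectodermal genes compare in a whole-limb profile.

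Limb cells read their dorsal or ventral position from signals that pass between the surface ectoderm and the mesenchyme beneath it. Wnt7a, a secreted Wnt ligand, is made by the dorsal ectoderm and induces Lmx1b, a LIM-homeodomain transcription factor that gives the dorsal mesenchyme its identity. En1, a homeodomain transcription factor that acts mainly as a repressor, is made by the ventral ectoderm, where it keeps Wnt7a off. H3K27ac marks active promoters and enhancers, and MACS, the peak caller named in the submitters' processing notes, reports stretches where the pulled-down DNA is denser than its surroundings.

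The promoters of the 3 genes are shown because H3K27ac is commonly found over active promoters rich in CpG. Each line holds the 250 bases before the start of transcription, 5′ to 3′ on the gene's strand, from RefSeq (build GRCm38.p6), with every CpG in capitals.
Lmx1b: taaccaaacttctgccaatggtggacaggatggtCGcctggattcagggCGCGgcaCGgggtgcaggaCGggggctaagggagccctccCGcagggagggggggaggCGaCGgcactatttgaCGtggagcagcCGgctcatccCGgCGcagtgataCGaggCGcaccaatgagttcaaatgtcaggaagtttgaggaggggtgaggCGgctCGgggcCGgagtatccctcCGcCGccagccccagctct
En1: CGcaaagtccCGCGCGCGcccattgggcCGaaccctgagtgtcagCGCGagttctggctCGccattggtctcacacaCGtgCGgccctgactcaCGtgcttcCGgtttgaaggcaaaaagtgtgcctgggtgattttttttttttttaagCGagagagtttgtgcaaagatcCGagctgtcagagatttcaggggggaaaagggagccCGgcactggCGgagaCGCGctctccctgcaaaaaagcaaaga
Wnt7a: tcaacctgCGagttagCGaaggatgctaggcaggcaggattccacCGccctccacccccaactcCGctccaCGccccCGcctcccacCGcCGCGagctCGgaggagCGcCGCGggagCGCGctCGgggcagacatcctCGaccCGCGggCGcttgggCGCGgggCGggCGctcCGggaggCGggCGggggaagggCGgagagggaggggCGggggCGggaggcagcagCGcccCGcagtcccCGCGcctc
The Wnt7a promoter held 34 CpGs at 77.6% GC, the Lmx1b promoter 19 at 65.2% and the En1 promoter 19 at 56% GC. The median over 32851 promoters of the same length was 6 CpGs, and the Wnt7a count was at or above that of 97.0% of them, the Lmx1b and En1 counts of 82.1%. On either strand, none of the 3 held the homeodomain core TAATTA (in 4.84% of all promoters), the TCF/LEF core CTTTGA (13.8%) or the TATA box TATAAA (12.4%). The sequences come from another genome build than the peaks, so no peak was placed on a promoter and no region was assigned to a gene. In GRCm38 the nearest protein-coding genes are Zbtb43 and Mvb12b beside Lmx1b, Marco and Insig2 beside En1, and Fbln2 and Chchd4 beside Wnt7a, and a region near the end of a window may belong to another gene than the one it is named for.

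The lists differed widely in length, from 26550 to 58753 peaks, and the length followed a tag in the names of the lists. The tag is not explained in the labels. It divided the libraries into 4 sets, referred to as runs 1 to 4 and treated as batches of unknown origin. Runs 1 and 2 each held 2 mm1179 KO and 2 WT libraries, and run 2 also both hs72 KO libraries. Run 3 held replicate 1 and run 4 replicate 2 of hs1262 KO, hs1467 KO, hs1586 KO and hs1603 KO. Peaks covered 89.6 to 93.6 Mb in run 3 and 141 to 166 Mb in run 4, against 62.6 to 115 Mb in runs 1 and 2. Read depth is unknown, so a missing peak shows that no call was made, not that the mark was absent.

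Of the 3 windows, that of Lmx1b, the mesenchymal gene, was the most densely covered by H3K27ac peaks. Peaks covered between 7.91% and 39.5% of its bases over the 18 libraries, with a median of 24.8%. In the En1 window the range was 1.52% to 4.81% with a median of 2.35%, and in the Wnt7a window 0.837% to 7.17% with a median of 3.05%. The lowest Lmx1b library was above the highest En1 and the highest Wnt7a library, so the levels did not overlap.

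Set against each other within a library, the Lmx1b window was higher than the En1 window by 22.1 ± 8.0 percentage points of covered bases (SD, n = 18), in 18 of 18 libraries. It exceeded the Wnt7a window by 21.5 ± 7.3 points (SD, n = 18), also in 18 of 18. Both differences had an adjusted p of 2.25e-05 in a two-sided sign-flip permutation test of the within-library differences, adjusted by Benjamini-Hochberg over the 9 comparisons of windows. The unadjusted p, 1e-05, was the smallest that 100000 resamples can give. These p-values speak of the spread between libraries, which may be technical, and not of chance among loci. Within run 1 the Lmx1b minus En1 difference was 21.1 points, within run 2 23.2, within run 3 10.6 and within run 4 32.9. The Lmx1b minus Wnt7a difference was 20.7, 22.1, 11.4 and 31.5 points in the 4 runs, so both kept their sign in every run. With only the central 200 kb of each window, the Lmx1b excess was 22.3 points over En1 and 19.1 over Wnt7a. In a whole limb, fewer ectodermal than mesenchymal cells and less acetylation per ectodermal cell cannot be told apart, and neighbouring genes in a window add to its coverage.

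**Figure D1:**
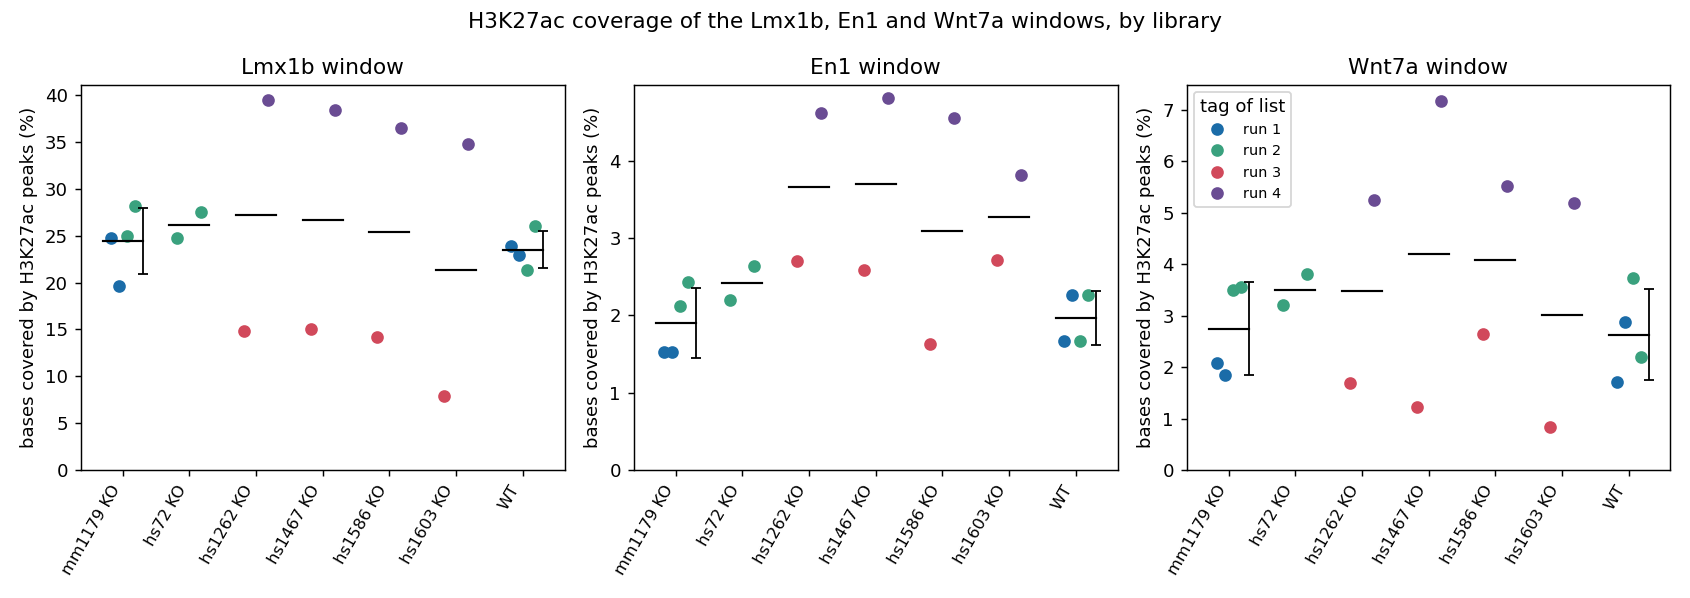
Percentage of the bases of each window covered by H3K27ac peaks, one point per library, with the 6 KO lines on the left and WT on the right of each panel; each panel has its own linear axis from 0. Colours give the run, short lines the mean of a group and bars 1 SD for the 2 groups of 4. The Lmx1b points lie between 7.91% and 39.5%, the En1 points between 1.52% and 4.81% and the Wnt7a points between 0.837% and 7.17%, and in the 4 lines split between runs the run 4 point is above the run 3 point.

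Between the 2 ectodermal genes, En1 and Wnt7a, the difference over the full windows was small. The En1 window was lower by 0.576 ± 1.11 points of covered bases (SD, n = 18; adjusted permutation p = 0.0491), and it was the higher one in 4 of 18 libraries. Its size and sign depended on what was compared. Within run 3 the difference was 0.805 points in favour of En1, and with the lists cut to equal length it was 0.342 points in favour of En1 (adjusted permutation p = 0.124). Without run 3 it was -0.971 points (adjusted permutation p = 0.000669). In the central 200 kb of each window En1 was covered to 0.496% and Wnt7a to 3.76%, with En1 higher in 0 of 18 libraries (adjusted permutation p = 2.25e-05).

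Peak number gave the same order for Lmx1b. There were 5.68 ± 2.14 peaks per 100 kb in the Lmx1b window, 1.1 ± 0.4 in the En1 window and 1.78 ± 0.90 in the Wnt7a window (SD, n = 18 each). Lmx1b had more peaks per 100 kb than En1 by 4.58 ± 1.91 and than Wnt7a by 3.90 ± 1.55, in 18 of 18 libraries each (adjusted permutation p = 2.25e-05 for both). En1 had fewer than Wnt7a by a difference of -0.681 ± 0.704 (adjusted permutation p = 0.00148), which was -0.0139 with lists of equal length (adjusted permutation p = 0.892). The widest peak of a library reached 26514 bp in the Lmx1b window, 5834 bp in the En1 window and 4005 bp in the Wnt7a window. Typical widths differed less. The median peak width of a library had a median of 2657.5 bp for Lmx1b, 2372.75 bp for En1 and 1553 bp for Wnt7a (n = 18 each). In the WT libraries it was 2174, 2191.5 and 1321.5 bp (n = 4 each).

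The authors' score of a peak was used as its percentile within its own list. Peaks of the Lmx1b window averaged a percentile of 59.3 ± 7.5, those of the En1 window 55.9 ± 11.5 and those of the Wnt7a window 35.2 ± 10.7 (SD of library means, n = 18 each). Lmx1b thus exceeded Wnt7a by 24.1 ± 15.8 percentile points, in 17 of 18 libraries (adjusted permutation p = 7.2e-05), and En1 exceeded Wnt7a by 20.7 ± 19.7 points, also in 17 of 18 (adjusted permutation p = 0.00096). WT replicate 1 was the exception in both. In the central 200 kb the sign of En1 minus Wnt7a turned. It was -21.5 points there, over only the libraries with an En1 peak in that part (adjusted permutation p = 0.0469). Over the full windows Lmx1b and En1 differed by 3.36 ± 11.4 points (adjusted permutation p = 0.227), and Lmx1b was higher in 11 of 18 libraries. A mean over all peaks of a window counts its weak peaks too, and with lists of equal length Lmx1b exceeded En1 by 13.9 points (adjusted permutation p = 0.00027). The best peak of a library had a percentile of 95.6 to 99.5 in the Lmx1b window, 62.8 to 87.8 in the En1 window and 28.6 to 88.9 in the Wnt7a window. In both ectodermal windows, then, no library had a peak as high in its list as the best Lmx1b peak of any library.

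The windows were also set beside the 50 kb bins of the genome that held a peak in any library. Bins without a peak were not in this reference. The Lmx1b window was dense, while most bins of the other windows lay below the median of these bins. Over these 27948 bins, the median bin was covered to 4.55% on average over the libraries. The 8 bins of the Lmx1b window had a median of 23.5%, the 8 En1 bins, empty ones included, 0.530% and the 5 Wnt7a bins 2.75%. The densest Lmx1b bin, the last of the window, was covered to 52.9%, more than or as much as 99.6% of bins with a peak. The bin before it was covered to 43.7%. In the En1 window 3 of 8 bins held no peak in any library. The densest, the last, was covered to 9.73%, at the 74.5 percentile of bins with a peak. The bin before it, at 9.50%, was at the 73.8 percentile. No Wnt7a bin exceeded 4.74%, which was at the 51.5 percentile.

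Along each window the calls were unevenly placed. The first 198.7 kb of the En1 window held no peak in any of the 18 libraries. In the Lmx1b window the longest such stretch was 54.0 kb, and in the Wnt7a window 65.9 kb. Bases covered in at least 9 libraries made up 25.9% of the Lmx1b, 2.30% of the En1 and 3.24% of the Wnt7a window. Bases covered in all 18 made up 3.74% of the Lmx1b and 0.652% of the En1 window, and there were none in the Wnt7a window.

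**Figure D2:**
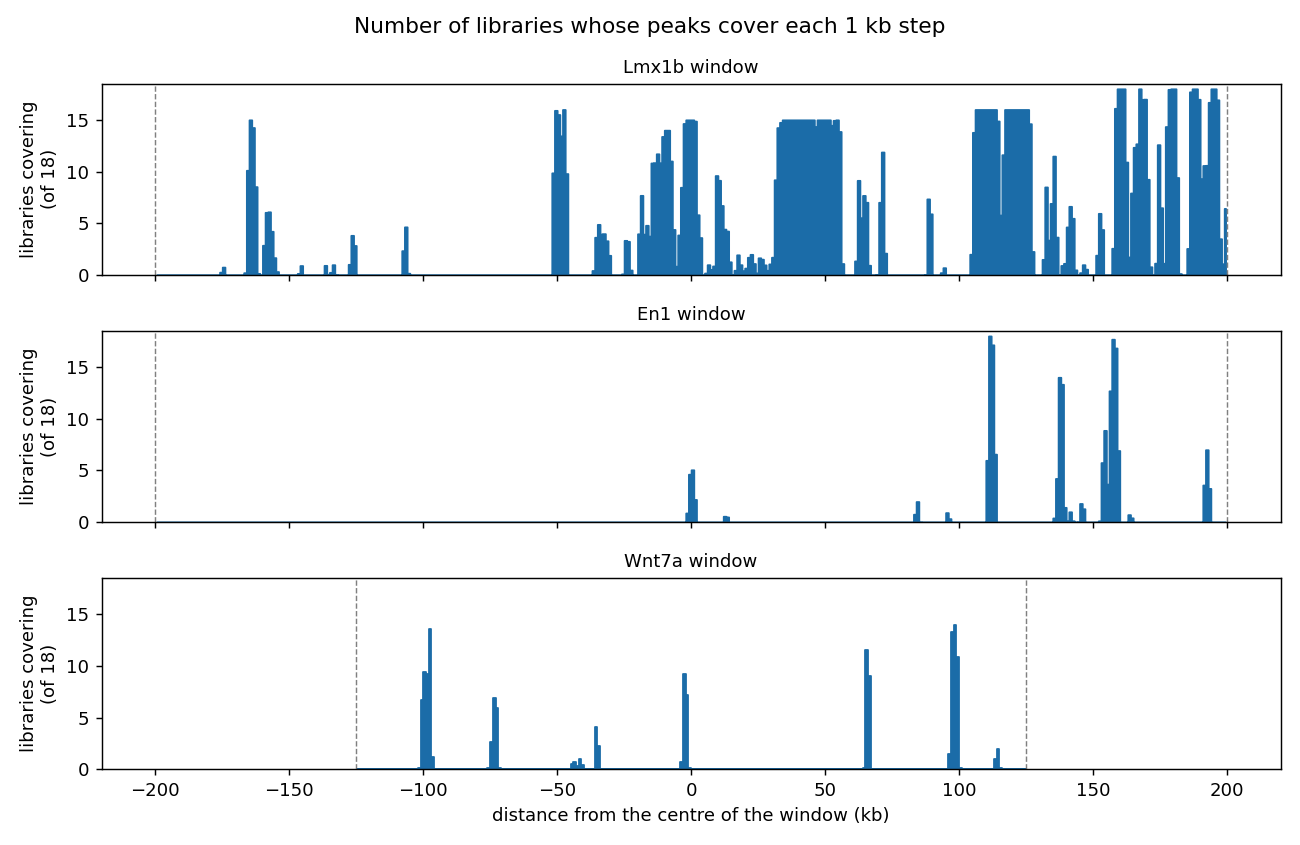
Number of libraries, of 18, whose peaks cover each 1 kb step of the 3 windows, against the distance in kb from the centre of the window; dashed lines mark the ends of a window. The Lmx1b window shows wide plateaus reached by 15 or 16 libraries and narrower blocks of 18 near its right end, the En1 window is empty over its first 198.7 kb, and no step of the Wnt7a window is covered in all 18.

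The Lmx1b window held 2 wide domains. The first spanned 25664 bp on chromosome 2 from 33480660 to 33506323 and was called in 15 libraries, at score percentiles of 81.8 to 99.2. The second spanned 22854 bp from 33554498 to 33577351 and was called in 16 libraries, at percentiles of 96.5 to 99.5. The second was thus among the highest peaks of every list that held it. In 14 of the 16 its score was exactly 3100, a value held by 289 to 3629 peaks of those lists, so the percentile there depends on how many peaks share it. Together the 2 domains made up 41.3% to 54.8% of the covered Lmx1b bases in the 10 libraries of runs 1 and 2 and 30.4% to 33.9% in those of run 4. In run 3 the share was 36.6% in hs1262 KO, 35.1% in hs1467 KO, 44.8% in hs1586 KO and 0% in hs1603 KO. Where it was called, the second domain covered 19392 to 22760 bp.

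In all 18 libraries 4 Lmx1b regions were called, and they lay together near the end of the window. The strongest, 4858 bp from 33626889 to 33631746, had percentiles of 84.2 to 97.4. Next came 11684 bp from 33635724 to 33647407 at 83.7 to 96.1, then 5361 bp from 33607692 to 33613052 at 61.5 to 96.9, and last 7619 bp from 33613685 to 33621303 at 37.4 to 87.8. The nearest region beyond the window began 5.41 kb after its end and was called in 17 libraries, so calls ran on past the bound. Near the middle of the window, regions from 33434396 to 33443926 and from 33445144 to 33453863 were called in 14 and 15 libraries, at percentiles of 83.9 to 96.7 and 50.9 to 96.9.

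In the En1 window 2 regions were called in all 18 libraries, both well to the right of the centre. The first, 4012 bp on chromosome 1 from 122655639 to 122659650, had percentiles of 67.5, 58.1, 77.9 and 75.9 in the mm1179 KO libraries and of 23.8, 74.1, 72.9 and 74.0 in the WT libraries. WT replicate 1 was lowest, and the groups overlapped. The second, 3251 bp from 122610382 to 122613632, ranged from 36.1, again in WT replicate 1, to 81.0 over the 18 libraries. A region of 3270 bp from 122635946 to 122639215 was called in 14 libraries, none of them in run 3, at percentiles of 55.2 to 78.3. Regions from 122652943 to 122655485 and from 122691429 to 122693638 were called in 9 and 7 libraries, of which 7 each came from runs 3 and 4.

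No region of the Wnt7a window was called in all 18 libraries. The widest, 4202 bp on chromosome 6 from 91224119 to 91228320, was called in 16, all but mm1179 KO replicate 1 and WT replicate 1, at low percentiles of 4.45 to 53.0. The highest-scoring, 3350 bp from 91421685 to 91425034, was called in the 14 libraries outside run 3. Its percentiles were 66.2, 52.5, 64.9 and 69.9 in the mm1179 KO libraries and 77.9, 68.0, 70.1 and 71.6 in the WT libraries, and in run 4 they were 82.6 to 88.9. A region from 91389971 to 91391858 was called in 13 libraries at 13.6 to 65.5, one from 91321734 to 91324013 in 11 at 4.68 to 54.4, and one from 91250060 to 91252845 in 8 at 10.6 to 56.8.

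Of the Lmx1b regions 4 of 32 were called in all 18 libraries, of the En1 regions 2 of 8 and of the Wnt7a regions 0 of 7, against 16.5% of all consensus regions. At least 9 libraries called 20 of 32, 4 of 8 and 4 of 7, against 59.2% of all. All 4 WT libraries called 13 of 32, 3 of 8 and 1 of 7, against 36.4%. Over the 3 windows together the shares, 12.8%, 59.6% and 36.2%, were near those of the genome, and nothing is read from them. The median width of a region was 3092 bp in the Lmx1b, 2726 bp in the En1 and 2280 bp in the Wnt7a window, and 2339 bp over all regions.

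**Figure D3:**
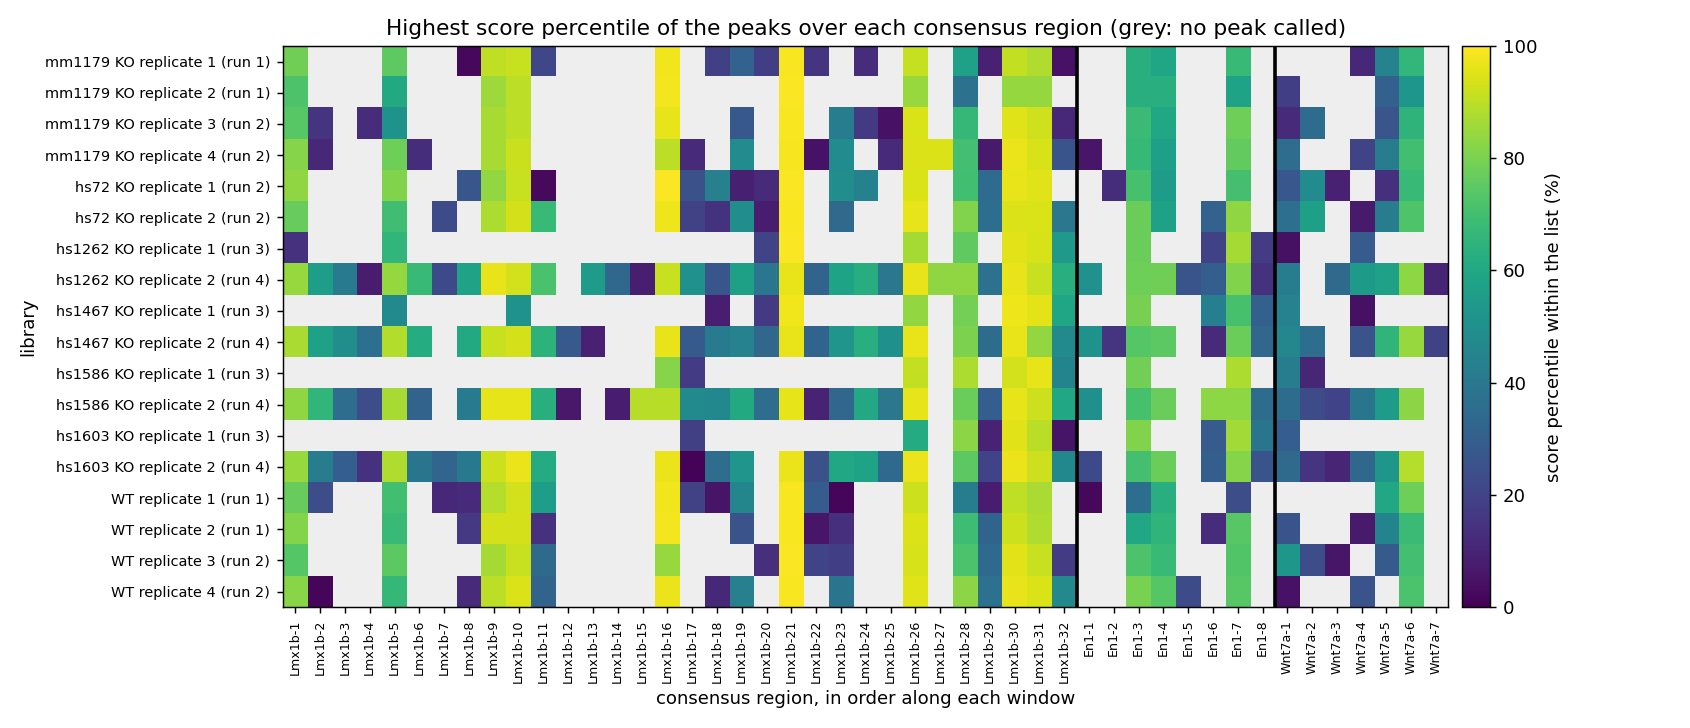
Highest score percentile, within its list, of the peaks over each of the 47 consensus regions, in order along the Lmx1b, En1 and Wnt7a windows (columns, separated by black lines) in the 18 libraries (rows); grey marks a region without a peak. Filled in all 18 rows are 6 columns, 4 of Lmx1b and 2 of En1, and the grey of the 4 run 3 rows covers most other Lmx1b columns.

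Between mm1179 KO and WT no difference in covered bases was detected in any of the 3 windows, by a test that could not have called 1 window alone. Peaks covered 24.8%, 19.7%, 25.0% and 28.2% of the Lmx1b window in mm1179 KO replicates 1 to 4, and 23.9%, 22.9%, 21.3% and 26.0% in WT replicates 1 to 4. The groups overlapped, at 24.4 ± 3.5% in mm1179 KO and 23.5 ± 2.0% in WT (SD, n = 4 each; adjusted p = 0.857, exact two-sided permutation test of 70 arrangements). The En1 window was covered to 1.53%, 1.52%, 2.12% and 2.43% in mm1179 KO libraries and to 1.67%, 2.27%, 1.67% and 2.26% in WT libraries. Means were 1.90 ± 0.45% in mm1179 KO and 1.96 ± 0.34% in WT (SD, n = 4 each; adjusted exact permutation p = 0.857). For Wnt7a the values were 2.08%, 1.86%, 3.50% and 3.55% in mm1179 KO libraries against 1.72%, 2.88%, 3.73% and 2.20% in WT libraries. Their means were 2.75 ± 0.91% in mm1179 KO and 2.63 ± 0.88% in WT (SD, n = 4 each; adjusted exact permutation p = 0.857). All p-values are adjusted over the 3 windows. The smallest unadjusted p of 4 libraries against 4 is 0.0286 in this permutation test. After the adjustment, a change in 1 window alone could therefore not have passed 0.05, whatever its size.

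Within runs the mm1179 KO minus WT difference changed sign in all 3 windows. In run 1 it was -1.15 points for Lmx1b, -0.441 for En1 and -0.333 for Wnt7a, and in run 2 it was 2.95, 0.314 and 0.559 points. With 2 libraries against 2, the smallest p a run allows is 0.333. The genome-wide fit of covered bases per 50 kb bin called none of 20565 bins (limma, Benjamini-Hochberg adjustment, 0% called), of which 461 had an unadjusted p under 0.05 (2.24%). Of the 13 bins in the windows with enough coverage, none reached either threshold. Their log2 changes in mm1179 KO over WT ran from -0.16 ± 0.17 (SE) in the En1 bin from 122600001 to 122650000 to 0.54 ± 0.49 (SE) in the Wnt7a bin from 91350001 to 91400000 (limma adjusted p = 1.00 for both), where covered bases were 1543 bp in mm1179 KO and 1107 bp in WT on average. That last change rested on 1 library, since without WT replicate 4 it was 0.05 (1543 bp in mm1179 KO and 1476 bp in WT), and with an offset of 100 bp it was 1.05. No region of the windows was called in all 4 mm1179 KO and no WT library, or the reverse, where 0.0348% and 0.0769% of regions genome-wide were. By Fisher's exact test of calls, none of the 39 regions tested in the windows had an unadjusted p under 0.05 (0.112% of 54583 genome-wide, none after adjustment), and 4 libraries against 4 cannot pass the adjustment.

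The hs72 KO libraries, both of run 2, had coverage of 24.7% and 27.6% in the Lmx1b window, where the WT libraries of run 2 had 21.3% and 26.0%. In the En1 window they had 2.20% and 2.64%, against 1.67% and 2.26% in WT, and in the Wnt7a window 3.21% and 3.80%, against 3.73% and 2.20% in WT. The ranges overlapped in all 3 windows, and no test of 2 libraries against 2 can reach 0.05. For hs1262 KO, hs1467 KO, hs1586 KO and hs1603 KO no WT library shared a run, so genotype and run cannot be told apart in a comparison with WT.

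In these 4 lines the run separated the 2 libraries of a line in each window. The Lmx1b window was covered to 39.5%, 38.4%, 36.5% and 34.8% in run 4 and to 14.9%, 15.01%, 14.2% and 7.91% in run 3 (hs1262 KO, hs1467 KO, hs1586 KO and hs1603 KO in this order). The run 4 over run 3 ratio was 2.66, 2.56, 2.58 and 4.40, while the ratio of all covered bases of the lists was 1.77, 1.78, 1.72 and 1.57. For Wnt7a the ratios were 3.10, 5.88, 2.08 and 6.21, and for En1 1.71, 1.86, 2.80 and 1.41. The Lmx1b and Wnt7a ratios were above the ratio of the whole list in each of the 4 lines, the En1 ratios in 2 of 4. Run and replicate number coincide here, and with 4 pairs no test can go below 0.125.

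**Figure D4:**
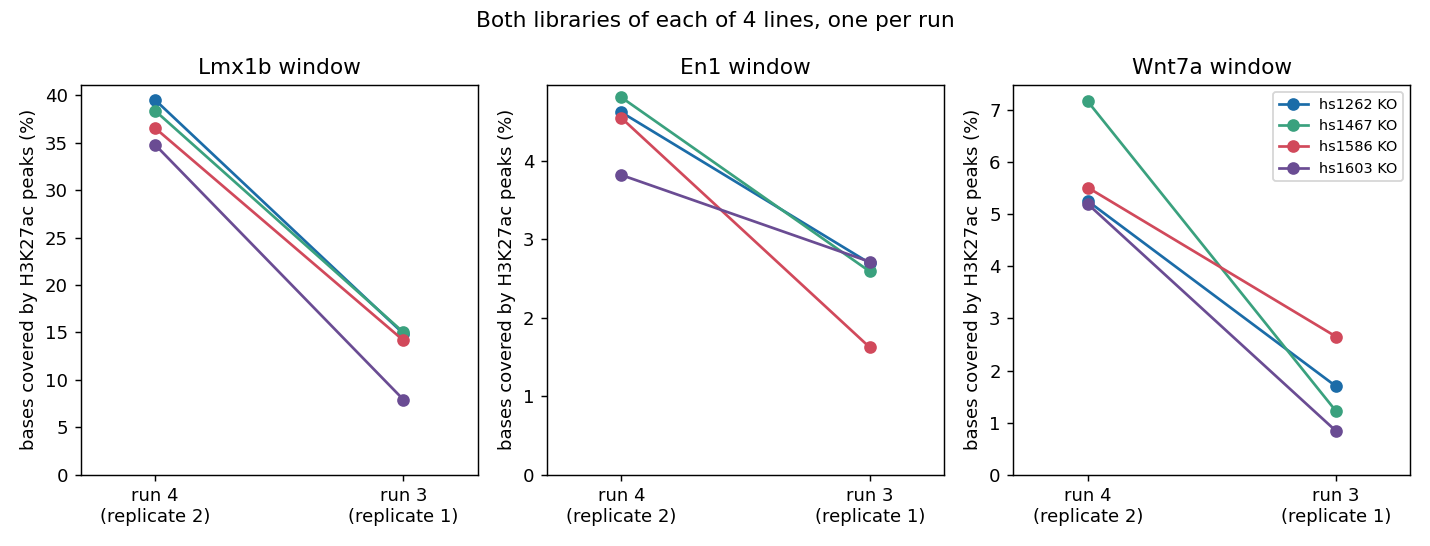
Percentage of bases covered by peaks in both libraries of hs1262 KO, hs1467 KO, hs1586 KO and hs1603 KO, with the run 4 library on the left joined to the run 3 library on the right; each panel has its own linear axis from 0. Every line is higher in run 4 in all 3 windows, with Lmx1b at 34.8% to 39.5% in run 4 and 7.91% to 15.01% in run 3.

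Libraries of run 3 missed Lmx1b regions that stood high in every list of runs 1, 2 and 4. The second wide Lmx1b domain had no peak in hs1586 KO replicate 1 and hs1603 KO replicate 1, while hs1262 KO replicate 1 and hs1467 KO replicate 1 called it over 21772 and 21068 bp at percentiles of 99.5 and 97.7. The first wide domain was called in run 3 by hs1586 KO replicate 1 only, over 25365 bp, and the region from 33434396 to 33443926 by none. Libraries of 1 run thus differed among themselves over both wide Lmx1b domains. The 14 libraries of runs 1, 2 and 4 all called 14 regions of the windows, 10 of Lmx1b, 3 of En1 and 1 of Wnt7a, against 29.9% of regions genome-wide. Of these 14, 6 were called by all 4 run 3 libraries (55.2% of such regions genome-wide), 5 by some of them (21.4% genome-wide) and 3 by none (23.5% genome-wide). Among such regions at least 10 kb wide, 60.6% genome-wide were called by all 4, 31.4% by some and 7.98% by none, so partial calls in run 3 were common among wide regions. Those called by none were the Lmx1b region from 33434396 to 33443926, the En1 region from 122635946 to 122639215 and the highest-scoring Wnt7a region. The Wnt7a window held 7 or 8 peaks a library in run 4 and 1 or 2 in run 3.

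Counted without regard to runs 1 and 2, regions called in every run 4 and no run 3 library, the 3 just named included, numbered 12 of 32 in the Lmx1b window, 2 of 8 in the En1 window and 2 of 7 in the Wnt7a window, against 17.4% genome-wide. Among them was the En1 region nearest the centre of its window, 2908 bp from 122498694 to 122501601. Its percentile was 50.4, 50.9, 50.1 and 22.6 in the 4 run 4 libraries, 5.93 in mm1179 KO replicate 4 and 2.13 in WT replicate 1, and it had no peak in the other 12. That region was singled out after its values were seen. Lmx1b regions called in run 4 only numbered 5 of 32 and Wnt7a regions 1 of 7, with 0 of 8 for En1, against 7.66% genome-wide.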

How the data were processed

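H3K27ac ChIP-seq peak lists of 18 forelimb libraries were used, 1 per library; the 18 inputs were not used here. MACS 1.4.2, Bowtie 0.12.8, cutadapt 1.1, bcl2fastq 2.17 and CASAVA, and the build mm9, are listed in no stated order, per the submitters' processing notes; how the inputs entered is not given in the sources used here. The authors deposited a position and a score per peak (40 to 3233), and the score served only to filter and to rank peaks within a list, ties sharing a mean rank. The lists hold no read counts. Peaks were clipped to the windows for covered bases; a call was an overlap of at least 1 bp. Bins of 50 kb with a mean of at least 500 covered bp were fitted with limma 3.58.1 (R 4.3.3; trend, robust) on log2(covered bp + 500). Other steps ran in Python 3.11.15 (numpy 2.4.6; scipy 1.17.1; figures with matplotlib 3.10.9), and procedures were tested on simulated data. Libraries are pooled tissue, so p-values describe the spread between pools, possibly a technical one.

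Members, windows and tests were chosen with earlier results of these data known. Regions named per window were the 5 called in most libraries, ties going to the higher mean percentile; the 2 wide Lmx1b domains, the regions in the middle of the window and others missed in run 3 were singled out after their values were seen. A list of pathway genes was not run, and the tissue was not checked against marker genes, because the annotation used here was of GRCm38. Results were recomputed with peaks scoring 100 or more, with every list shortened to its top 26550 peaks, with the central 200 kb of each window, with other overlaps and offsets, the replicate number as a block, the run as a term, single runs and leaving out each replicate or run.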

Additional observations from a re-analysis of the deposited data

Results flagged for a closer look

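Among the 4 libraries of a group, 3 values stood apart from the other 3 by a gap test at the 95% level, of 18 groups examined. Chance gives about 1 in 20 for continuous values, a rate that does not hold for tied peak counts. In the Wnt7a window the mean score percentile of WT replicate 1 was 68.9, against 30.3 to 35.2 in the other WT libraries; that library had 2 peaks there, at percentiles of 59.99 and 77.9. In the En1 window mm1179 KO replicate 4 had 1 peak per 100 kb, against 0.75 in the other 3 mm1179 KO libraries, and WT replicate 3 had 0.75, against 1 in the other 3 WT libraries. Both gaps are of 1 peak, 4 against 3 and 3 against 4 peaks in the window. When 3 of 4 counts tie, the gap test flags the remaining one whatever its distance, so these 2 flags carry no weight.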

How the results depend on the processing

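Of 144 alternative values for the 9 comparisons of windows, 6 turned sign, each given here. The mean Lmx1b excess in covered bases and in peaks kept its sign throughout. Within run 3 it was 10.6 points over En1 and 11.4 over Wnt7a, with 1.44 and 1.61 more peaks per 100 kb and 42.9 percentile points over Wnt7a, and within run 4 it was 32.9 and 31.5 points. Without 1 replicate number it was 18.4 to 26.1 points over En1 and 18.1 to 25.0 over Wnt7a. Lmx1b minus En1 in percentile was 16.6 at scores of 100 or more and 13.9 with lists of equal length (adjusted permutation p of 0.00051 and 0.00027). In the central 200 kb it was 30.5, over only the libraries with an En1 peak there (adjusted permutation p of 0.0352). It was -2.5 within run 2, and 0.329 to 5.07 without 1 replicate number.

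En1 minus Wnt7a depended on the setting. In covered bases it was 0.307 at scores of 100 or more, 0.342 with lists of equal length and -1.12 within run 2. It was -0.63, -0.306 and -0.359 without runs 1, 2 and 4, and -1.09 to -0.264 without 1 replicate number. Each of these had an adjusted permutation p above 0.05 except without replicate 1 (0.00243). Within run 3 it was 0.805, where 4 libraries cannot give a p below 0.125. The difference passed without run 3 (-0.971, adjusted permutation p = 0.000669) and in the central 200 kb (-3.26, adjusted permutation p = 2.25e-05). In peaks per 100 kb it was -0.0639 at scores of 100 or more, -0.0139 with lists of equal length, 0.175 within run 3 and -1.06 to -0.459 without 1 replicate number (adjusted permutation p = 0.11 without replicate 2). In percentile it was -21.5 in the central 200 kb, where 7 libraries had an En1 peak. The cause was not tested.

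No mm1179 KO minus WT difference passed the threshold under any alternative, but the tests within a run and with the replicate block could not have passed. The sign turned for En1 at scores of 100 or more (0.308), with lists of equal length (0.154), in the central 200 kb (0.05525) and within run 2 (0.314), for Wnt7a with a minimum score of 100 (-0.2165) and within run 1 (-0.333), and for Lmx1b within run 1 (-1.15). Leaving out 1 library gave -0.367 to 2.47 points for Lmx1b, -0.239 to 0.0624 for En1 and -0.193 to 0.48 for Wnt7a. Same-numbered mm1179 KO and WT libraries also share a run. Their deviations from the group means correlated at 0.0293 to 0.258, and those of differently numbered libraries of a run at 0.0676 to 0.201. The numbers were therefore not taken as pairs. Every correlation across runs was negative, which deviations from a group mean partly force. With the replicate block the differences were 0.898, -0.0636 and 0.113 points (adjusted exact p = 0.875 each), where 4 pairs cannot give a p below 0.125. No bin was called with the block. The limma fit called 0 bins under every alternative, with 319 to 973 bins at an unadjusted p under 0.05.

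Regions of the windows called in every library numbered 6, 14 without run 3 and 3 with a minimum score of 100. Fewer libraries to match can only raise this count. With a minimum score of 100, the weakly scored named regions kept few calls: 1 and 2 libraries for the En1 regions from 122652943 and from 122691429, and 6, 3 and 3 for the Wnt7a regions from 91224119, 91321734 and 91250060. Unknown depth limits every absent call.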
